A study of Mus musculus with 3 samples.

Results

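The RNA described here is that of naive CD4 T cells, the starting population of a study of mouse T helper cell polarisation, as read in the Cy3 (green) channel of 3 Agilent 2-colour arrays. A probe was taken as a member when its Cy3 spots were well above background, by the scanner software's call, on all 3 arrays. Of 39429 non-control probes, 20027 (50.8%) met this rule. Of 19751 genes that could be named on the array, 11541 (58.4%) had such a probe, 7231 (36.6%) had no probe above background in any naive channel, and 979 lay between, with no probe above background in all 3 channels but at least 1 probe above it somewhere.

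Splenic CD4 T cells came from C57BL/6 mice aged 6 to 8 weeks, and naive cells were sorted from them with magnetic beads (MACS) by surface markers that the labels do not name. Naive RNA was labelled with Cy3 on every array. The Cy5 channel held RNA of naive cells stimulated for 3 days with plate-bound anti-CD3e and soluble anti-CD28, 10 µg/ml each, in 1 of 3 polarising media. The Th2 medium held IL-2 at 1 ng/ml, IL-4 at 5 ng/ml and anti-IFN-gamma at 2 µg/ml. The Th9 medium held IL-2 at 0.2 ng/ml, IL-4 at 1 ng/ml, TGF-beta1 at 2 ng/ml and anti-IFN-gamma at 5 µg/ml. The medium for induced regulatory T cells (iTreg) held IL-2 at 0.4 ng/ml, TGF-beta1 at 5 ng/ml, anti-IFN-gamma at 5 µg/ml and anti-IL-4 at 5 µg/ml. Each labelling started from 0.2 µg of total RNA, and the dyes were not swapped. Whether the 3 naive channels carried 1 RNA extract or several, and from how many mice, is not stated, so the spread between these channels may be technical. All 3 arrays lay on 1 slide.

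A naive CD4 T cell has left the thymus and has not yet met its antigen. It circulates between blood and lymphoid organs, drawn into the lymph node by CCR7 and released by the sphingosine receptor S1PR1, and it survives on IL-7 and on weak contacts with self-peptide on MHC molecules. Quiescence in these cells is actively kept by transcription factors such as KLF2, FOXO1 and TCF1, and such cells are known to run on mitochondrial respiration more than on glycolysis until they are activated.

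Signal is given as log2 of the spot's median intensity minus its local background, scaled between arrays, so 1 unit is a doubling. Cy3 and Cy5 were scaled separately, with no scaling between dyes, so their levels do not compare amounts of RNA in naive cells and cultures. A summed level is the log2 of the added linear signals of a list, and summed Cy5 levels use the probe chosen in Cy3. The 3 values of a gene follow the order of the Th2, Th9 and iTreg arrays, and ± is the SD over these 3 naive channels. A gene is given by its brightest member probe. Its percentile is its rank among the 11541 genes above background, where 100 is the brightest. Each count of list members above background is to be set against the 58.4% of all named genes. A probe's brightness depends on its sequence as well as on the RNA, so ranks order probes and are only a rough guide to the abundance of different RNAs. Of 3817 member genes with several probes, 1226 (32.1%) had another probe at least 8-fold dimmer, and 909 (23.8%) had another probe above background in no naive channel. No test between groups was made, because the levels of 1 group are described and the naive and culture channels differ in dye as well as in cells. All results are descriptions.

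The 3 naive channels were close to each other. Between 53.0% and 54.1% of the 43020 spots per array were above background and 0 were saturated. Pearson's r over the member genes, which are not independent replicates, ran from 0.998 to 0.999. The SD of a gene over the 3 channels had a median of 0.0484 on the log2 scale and a 90th percentile of 0.148. Only 33 genes (0.286%) differed at least 2-fold between any pair of naive channels. The median level of a member gene was 9.64, with 10% of genes below 6.44 and 10% above 12.92. Negative control spots had median scaled levels of 4.73, 4.54 and 4.44. The dimmest member probe had a mean of 5.52, and the median of the 1000 dimmest was 5.91. Just outside the rule, 630 probes above background on 2 arrays had a median of 5.80.

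The brightest named genes included many of translation, beside a mixed set of others. Tpt1, which encodes the translationally controlled tumour protein, led with 17.49, 17.58 and 17.57. Actb, cytoplasmic beta-actin, followed with 17.45, 17.51 and 17.55, and then H2-K1, the heavy chain of the class I molecule H-2K, with 17.30, 17.36 and 17.44. Of the 25 brightest, 10 were ribosomal protein genes, from Rps27 (mean 17.34) and Rps29 (17.28) to Rps10 (16.78). Fau, whose product is processed into a ribosomal protein, stood at 16.77. The list also held Tmsb4x, the actin-binding thymosin beta 4 (16.91), Ppia, cyclophilin A (16.92), Rn4.5s, a small RNA (17.02), and Cd52, a small lymphocyte surface glycoprotein (16.76).

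For 4 of these 25, another probe of the same gene was above background in no naive channel. F10, coagulation factor X, read 17.13, 17.24 and 16.87 by its brightest probe, while its dimmest probe had a mean of 4.83, near the negative controls. Slc10a1, a bile acid transporter of the liver, read 17.04, 17.00 and 16.69, with a dimmest probe at 4.59. Elk1 (17.06, dimmest probe 5.67) and Kctd14 (17.01, dimmest probe 5.29) were alike in this. The naive signal of these 4 bright probes was lowest on the iTreg array, where their Cy5 signal was highest. Ttc38 (16.94), Limd2 and Shisa5 had dimmest probes at 7.58, 9.97 and 11.94, all above background. For such genes the level cannot be read from the bright probe alone.

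The probes with no gene name went further. All 6 of the brightest probes on the array were unnamed, carrying 4 different identifiers, with means between 17.73 and 18.19. Their mean was 18.21 on the Th2 array, 18.19 on the Th9 array and 17.62 on the iTreg array, so these too were lowest on the iTreg array. Among the 25 brightest probes, 16 had no gene name. In all, 5111 member probes were unnamed.

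The listed markers of the label were detected, but the list was chosen with earlier results of these data known. It is no independent check of identity. Of 11 genes listed for naive CD4 T cells, 11 were above background, against 58.4% of all named genes, and 10 were among the brightest 10% of member genes. All 11 were also above background in all 3 Cy5 channels, as were 10367 of the 11541 member genes. Detection of the list thus did not set the naive RNA apart from the cultures. The list's summed naive levels were 17.83, 17.86 and 17.82, and its summed Cy5 levels were 17.44, 17.58 and 18.24. Il7r, the IL-7 receptor alpha chain, read 13.45, 13.50 and 13.50 (13.49 ± 0.0277, n = 3), at percentile 93.4. Klf2, the transcription factor that keeps S1pr1 switched on, read 14.91, 14.93 and 14.79 (14.88 ± 0.0725), and Lef1, a partner of TCF1, read 14.13, 14.32 and 14.46 (14.30 ± 0.169). The values of each gene lay close together, and Lef1 had the widest spread of the 11.

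Ccr7, the chemokine receptor for entry into lymph nodes, was the brightest of the set at 15.71, 15.68 and 15.51. Satb1, a chromatin organiser of T cells, and Dapl1, a gene high in naive T cells, had means of 14.20 and 14.05. Tcf7, the gene of TCF1, read 13.20, 13.26 and 13.15. Cd4 read 13.49, 13.46 and 13.41 by its brighter probe, and its other probe had a mean of 8.50. Igfbp4, an insulin-like growth factor binding protein used as a naive T cell marker, was the dimmest at 10.83, 10.79 and 10.87, at percentile 67.0.

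**Figure D1:**
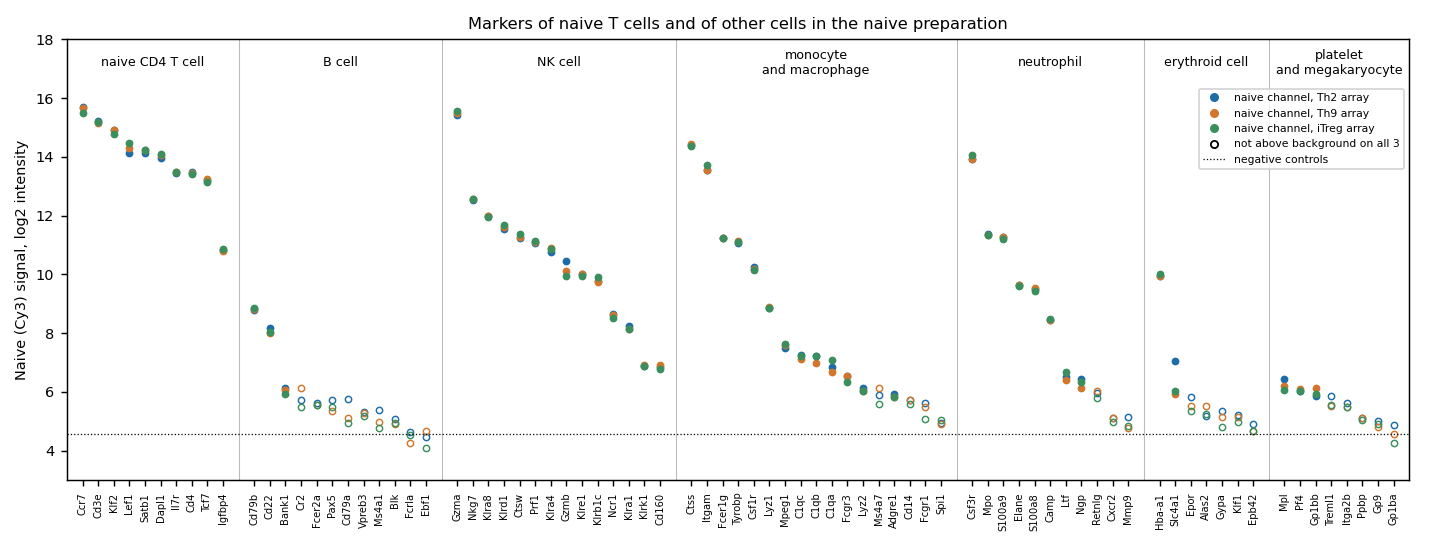
Naive (Cy3) signal in log2 intensity for marker genes of naive CD4 T cells and of 6 other cell types, 1 point per array, with open points for genes not above background in all 3 naive channels and a dotted line at the level of the negative controls. Ccr7 leads the naive markers at 15.63, Ms4a1 and Pax5 have open points, and Gzma (15.49), Ctss (14.40) and Csf3r (13.98) stand high among the markers of other cells.

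The T cell receptor complex was bright throughout. All 12 listed genes of the complex and its coreceptors were above background, against 58.4% of all named genes. Their median percentile was 97.8, and 10 were among the brightest 10%. Cd3d read 15.65, 15.70 and 15.59, Cd3e read 15.21, 15.16 and 15.18, and Cd3g read 14.69, 14.76 and 14.72. These encode the CD3 chains that carry the receptor's signal. Cd5 (mean 15.40), Cd2 (15.26) and Cd6 (15.17), adhesion and tuning receptors of the T cell synapse, were as high in rank, above percentile 98. Cd247, the gene of the zeta chain, was the dimmest at 10.48, 10.54 and 10.74, and Cd27, a costimulatory receptor, was next at 10.74. Cd28, the main costimulatory receptor, read 13.35, 13.36 and 13.28.

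Of the 18 genes of proximal receptor signalling, 18 were above background, against 58.4% of all named genes, with a median percentile of 88.9. Lck, the kinase that phosphorylates the CD3 chains, read 16.21, 16.19 and 16.13 and was the brightest. Skap1, an adaptor for integrin activation, and Zap70, the kinase recruited to the phosphorylated chains, had means of 14.84 and 14.68. At the other end, Plcg1, phospholipase C gamma 1, read 8.56, 8.55 and 8.55, and its dimmest probe was above background in no naive channel. Tec, a kinase of T cell receptor signalling, had a mean of 9.61, and Lcp2, the gene of the adaptor SLP-76, of 9.79. Fyn, the second Src-family kinase of T cells, read 10.57, 10.53 and 10.51.

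Brakes on this pathway were present as well. Of 16 listed genes, 14 were above background in all 3 naive channels, against 58.4% of all named genes, and 0 were absent. The median percentile was 76.3. Dgka, a diacylglycerol kinase that limits Ras activation, was the brightest at 14.97, 14.97 and 14.96. Dok2, an adaptor that dampens signalling, and Ptpn6, the phosphatase SHP-1, had means of 13.75 and 13.50. Cbl and Cblb, both ubiquitin ligases, and Ubash3a, a phosphatase-like regulator, were among the dimmer at 8.42, 10.11 and 9.55. Pag1, an adaptor that anchors the inhibitory kinase CSK, read 5.93, 5.66 and 5.64 and was above background on 2 arrays. Dgkz read 13.12 and 13.19 on the Th9 and iTreg arrays, and its spot on the Th2 array was dropped as an outlier.

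**Figure D2:**
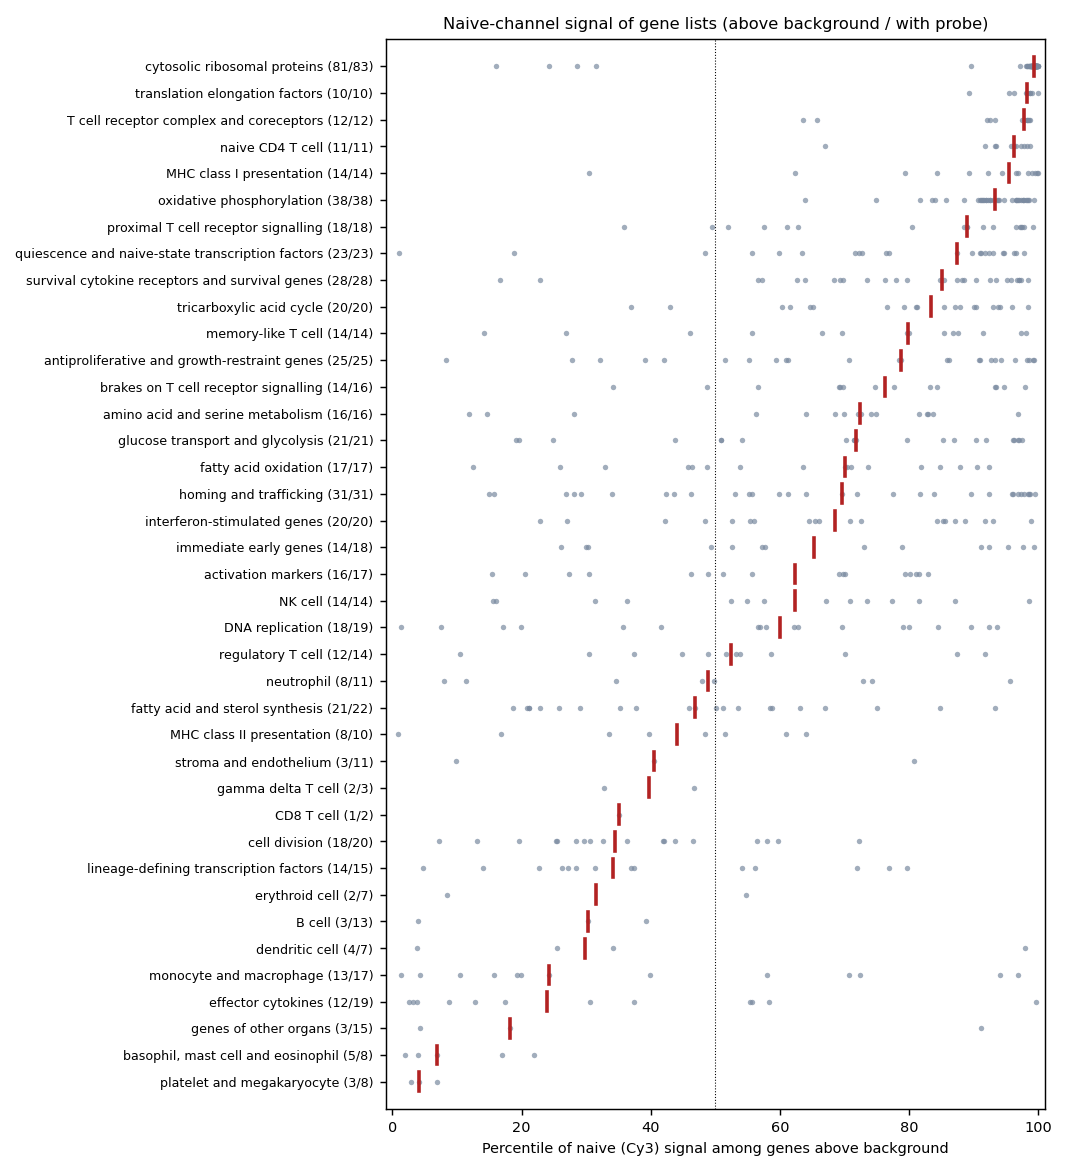
Percentile of the naive (Cy3) signal among the 11541 genes above background, for each of 39 gene lists, with 1 point per gene, a bar at the list's median and the number above background of the number with a probe in the label. Ribosomal proteins, elongation factors and the T cell receptor complex have medians above 97, and effector cytokines, platelet genes and basophil genes have medians below 25.

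Homing receptors covered a broad range. Of 31 listed genes with a probe, 31 were above background, against 58.4% of all named genes. Of these, 10 were among the brightest 10%, and 9 were below the median. Coro1a, an actin regulator needed for T cell egress and survival, read 16.41, 16.44 and 16.51, and was the brightest. Itgb7, an integrin chain for gut homing, read 15.50, 15.53 and 15.54, and Ccr7 was in the same upper range. S1pr1, the receptor for exit from lymphoid organs, read 13.34, 13.34 and 13.25. Icam2, a ligand of LFA-1, and Selplg, a selectin ligand, had means of 14.41 and 14.17.

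Among other chemokine receptors, Cxcr3, a receptor typical of Th1 and memory cells, read 11.07, 11.01 and 11.01, and Cxcr6 read 10.31, 10.31 and 10.37. Ccr9, which guides cells to the small intestine, had a mean of 9.37. Ccr8 and Ccr2 were among the 3 dimmest of the list, with means of 6.88 and 7.79. Ccr8, a receptor of Th2 and regulatory cells, read 6.71, 6.74 and 7.19, highest on the array whose Cy5 signal was also highest, at 11.15. The same order held for Ccr6, a receptor of Th17 cells, which read 8.94, 9.16 and 9.42 beside Cy5 signals of 6.17, 11.16 and 14.73.

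The transcription factors of the naive state were mostly bright. All 23 listed were above background, with a median percentile of 87.4. After Klf2, Lef1 and Satb1 came Foxp1, a factor that restrains activation of naive T cells, at 13.75, 13.79 and 13.81 (dimmest probe 8.46), and Ets1, a factor for Il7ra expression and T cell survival, at 13.75, 13.75 and 13.73. Foxo1, the factor upstream of Klf2 and Il7r, read 13.07, 13.09 and 13.13. Bcl11b, a keeper of T cell identity, and Bach2, a repressor of effector genes, had means of 13.09 and 10.58. The dimmest were Foxo3 and Elf4. Foxo3, a relative of Foxo1, read 6.00, 5.81 and 5.71, at percentile 1.03. Elf4, an ETS factor reported to act upstream of Klf4 in CD8 T cells, read 7.31, 7.19 and 6.82. Each had 1 named probe, so no other probe could be set beside it.

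Genes that restrain growth followed the same pattern. All 25 listed were above background, against 58.4% of all named genes, with a median percentile of 78.8, and 10 were among the brightest 10%. In all 3 Cy5 channels 24 of the 25 were above background as well, beside 10367 of all 11541 member genes. The list's summed naive levels were 18.31, 18.38 and 18.36, and its summed Cy5 levels were 18.35, 18.32 and 18.36. With the dyes scaled separately, these sums do not show equal amounts of RNA. Zfp36l2, an RNA-binding protein that speeds the decay of AU-rich messages, read 16.27, 16.30 and 16.22. Btg1, an antiproliferative factor of quiescent T cells, read 16.18, 16.27 and 15.97, with its other probe at 12.36. Ddit4, an inhibitor of mTORC1, read 15.22, 15.39 and 15.84, an SD of 0.318 that was the widest of the list. Its highest naive value was on the iTreg array, where its Cy5 signal was lowest. Slfn2, a factor whose loss makes T cells leave quiescence, had a mean of 13.46, and Cdkn1b, the gene of the cell cycle inhibitor p27, of 13.09. Tsc2, a partner of TSC1 in holding back mTORC1, was the dimmest at 6.43, 6.40 and 6.15, and Tsc1 read 10.33, 10.31 and 10.27.

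Survival genes were also above background without exception, 28 of 28, with a median percentile of 85.1. The GIMAP family, GTPases that sustain naive T cells, was led by Gimap6 at 15.23, 15.33 and 15.30 and ended with Gimap7 at 10.00, 10.11 and 10.21. Mcl1, an antiapoptotic relative of BCL-2, read 14.60, 14.66 and 14.65, and Jak1, the kinase shared by many cytokine receptors, read 14.40, 14.36 and 14.35. Bcl2 itself had a mean of 12.29. The dimmest was Bcl2l11, the proapoptotic gene of BIM, at 6.94, 7.02 and 6.86.

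Effector cytokines were above background about as often as other genes, but mostly dim. Of 19 listed, 12 (63.2%, against 58.4% of all named genes) were above background in all 3 naive channels, 3 were in none and 4 were in 1 or 2 channels. The median percentile of the 12 was 24.0. Ltb, the lymphotoxin beta chain that resting lymphocytes make, was the exception at 16.63, 16.61 and 16.57. Tgfb1 and Lta followed with means of 10.22 and 10.05. Ifng, the signature cytokine of Th1 cells, read 10.04, 10.03 and 10.03, at percentile 55.5. Il2, the growth factor of activated T cells, read 7.02, 6.95 and 6.99, and Il4 read 6.76, 6.59 and 6.54. The 3 dimmest above background were Il21 (5.95), Il22 (5.99) and Il3 (6.03).

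Il10, Il17f and Csf2 were above background in no naive channel. Il9, the signature cytokine of Th9 cells, read 5.07, 6.10 and 4.89 and was above background on the Th9 array alone, where the Cy5 signal was 13.54. Il13 read 6.62, 5.54 and 6.45, and Il5 read 5.77, 5.08 and 5.66, both highest on the Th2 array, where their Cy5 signals were 11.77 and 9.26. Il17a read 5.21, 5.80 and 5.30 and was above background on 1 array, beside Cy5 signals of 7.52, 7.45 and 7.45.

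Of 15 lineage-defining transcription factors, 14 were above background, against 58.4% of all named genes. Their median percentile was 34.2, and none was among the brightest 10%. Batf, an AP-1 factor of several effector lineages, led at 11.79, 11.80 and 11.83. Gata3, which naive CD4 T cells also need, read 11.56, 11.53 and 11.61, and Bcl6, the factor of follicular helper cells, had a mean of 11.19. Tbx21, the gene of T-bet, read 10.11, 10.10 and 10.01, and Eomes, its relative, read 10.02, 9.96 and 9.85. Foxp3, the factor of regulatory T cells, was lower, at 8.67, 8.69 and 8.68. Spi1, the gene of PU.1, was above background in no naive channel.

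Activation markers were mostly in the middle ranks. Of 17 listed, 16 were above background, against 58.4% of all named genes, with a median percentile of 62.4. Icos, an inducible costimulator, was the brightest at 12.07, 12.12 and 12.08, followed by Slc3a2, a chain of amino acid transporters, and Cd69, an early activation marker, at means of 11.97 and 11.93. Il2ra, the gene of CD25, read 9.56, 9.58 and 9.56. Tigit, Lag3 and Tfrc were the 3 dimmest at 6.85, 7.26 and 7.83. Lag3, an inhibitory receptor, read 7.75, 7.35 and 6.70, in the same order as its Cy5 signals of 12.17, 11.32 and 9.76. Havcr2, the gene of TIM-3, was above background in no naive channel.

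Immediate early genes, which respond within minutes to stimulation or to handling of cells, were split. Of 18 listed, 14 were above background, and 5 were among the brightest 10%. Dusp2, a phosphatase of MAP kinases, read 16.28, 16.43 and 16.17. Nfkbia, the inhibitor of NF-kappaB, had a mean of 14.79, and Jund of 13.91. Nr4a1, a nuclear receptor induced by T cell receptor signals, read 13.32, 13.30 and 13.29. Fos, in contrast, had a mean of 11.26 and Fosb of 7.72. Egr3 and Nr4a3 were above background in no naive channel, Ier3 in 1 and Atf3 in 2. Atf3, a stress-induced factor, read 7.06, 6.00 and 5.10, beside Cy5 signals of 11.73, 10.34 and 6.34.

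Markers of regulatory and of memory-like T cells were present in the same RNA. Of 14 regulatory T cell markers with a probe, 12 were above background, against 58.4% of all named genes, with a median percentile of 52.4. Capg, an actin-capping protein, led at 13.01, 13.29 and 13.30, followed by Tnfrsf18, the gene of GITR, at a mean of 12.59. The 3 dimmest of the list were Foxp3 at a mean of 8.68, Ctla4, an inhibitory receptor, at 8.10 and Nrp1, a marker of thymus-derived regulatory cells, at 6.46. Entpd1, the gene of CD39, was above background in no naive channel, and Gpr83 in 1. The 14 memory-like markers with a probe were all above background, with a median percentile of 79.8. Ccl5, a chemokine of memory and cytotoxic lymphocytes, read 14.91, 15.03 and 15.03, and Ly6c1, a surface protein of memory and other cells, read 14.55, 14.64 and 14.69. Lgals1, galectin 1, had a mean of 13.16, S100a4 of 12.52, and Cd44, the classical marker of antigen experience, of 10.05, with its dimmest probe in no naive channel. Il18rap, a chain of the IL-18 receptor, Ccr2 and Anxa1, annexin A1, were the dimmest at 6.74, 7.79 and 9.36. In RNA from a whole preparation, a few cells with much of an RNA and many cells with a little of it cannot be told apart.

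Among the metabolic lists, oxidative phosphorylation and the tricarboxylic acid cycle had the highest median percentiles. Oxidative phosphorylation had 38 of 38 genes with a probe above background, with a median percentile of 93.3, and 31 were among the brightest 10%, against 10% of all member genes. All 38 were also above background in all 3 Cy5 channels. The list's summed naive levels were 19.28, 19.28 and 19.43, and its summed Cy5 levels were 20.63, 20.80 and 20.20. Cox6a1, a subunit of cytochrome c oxidase, led at 16.16, 16.01 and 16.40, followed by Atp5h and Atp5g2, subunits of ATP synthase, at 15.47 and 15.29. The tricarboxylic acid cycle had 20 of 20 above background, with a median percentile of 83.4 and 7 among the brightest 10%. The list's summed naive levels were 17.14, 17.17 and 17.27, and its summed Cy5 levels were 18.22, 18.41 and 17.74. Mdh2, mitochondrial malate dehydrogenase, was the brightest at 15.29, 15.33 and 15.49, and Dlat, a subunit of pyruvate dehydrogenase, the dimmest at 8.66, 8.61 and 8.67.

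Glycolysis was uneven. All 21 genes were above background, with a median percentile of 71.8, and 7 were among the brightest 10%. The list's summed naive levels were 17.1, 17.1 and 17.4, and its summed Cy5 levels were 21.06, 21.05 and 20.64. Ldha, which makes lactate, read 14.62, 14.44 and 14.98 (dimmest probe 10.97), Gapdh read 14.34, 14.45 and 14.53, and Eno1 read 14.22, 14.35 and 14.64. In these 3 the iTreg array was highest, while their Cy5 signals were lowest on that array. Hk2, the hexokinase induced upon activation, read 7.43, 7.15 and 6.81 and was the dimmest of the list. Hk1, the constitutive form, read 12.99, 12.99 and 12.98 by its brighter probe and had a mean of 8.82 by the other, so the gap between these isoforms depends on the probe. Slc16a1, a lactate carrier, had a mean of 7.18. Slc2a1 and Slc2a3, the glucose transporters GLUT1 and GLUT3, had means of 11.07 and 11.18.

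Fatty acid oxidation had 17 of 17 genes above background, with a median percentile of 70.1, from Acadvl, an acyl-CoA dehydrogenase, at 13.29, 13.30 and 13.34, to Cpt1b, the muscle form of the carnitine transferase, at 6.48, 6.74 and 6.58. Synthesis of fatty acids and sterols ranked lower, with 21 of 22 above background and a median percentile of 46.9. Acly, which makes cytosolic acetyl-CoA, led at 13.42, 13.49 and 13.51, but its other probe had a mean of 6.20. Fasn, fatty acid synthase, had a mean of 7.31. Scd1, a desaturase, was above background on the Th9 array alone, at 6.59, where its Cy5 signal was highest at 12.04. Amino acid and serine metabolism had 16 of 16 above background. Atf4, the factor that drives this programme, read 14.26, 14.36 and 14.54, with its other probe at 9.39. Asns, asparagine synthetase, read 7.11, 6.97 and 6.29, in the order of its Cy5 signals of 14.37, 13.81 and 11.45.

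Translation was the brightest list. Of 83 genes named as cytosolic ribosomal proteins, 81 were above background, with a median percentile of 99.3, and 76 were among the brightest 10%. The 2 absent genes were Rpl10l and Rpl3l, tissue-restricted paralogues of the testis and of muscle. The 3 dimmest above background were Rpl39l (6.89), Rps4l (7.57) and Rpl7l1 (7.94), paralogues as well. Rpl21 was also below the median of member genes, at 8.19 and, by its other probe, at 7.52. The ribosomal list had a median SD of 0.172, against 0.0484 over all member genes, and its median level was 16.08, 16.12 and 16.42 on the Th2, Th9 and iTreg arrays. Ribosomal protein genes have many near-identical pseudogene copies, and 18 of the 81 had another probe at least 8-fold dimmer. Elongation factors and related genes had 10 of 10 above background, with Eef1a1 at 15.86, 15.82 and 16.09.

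Ribosomal protein genes are known for a pyrimidine tract at the start of transcription, which links their translation to mTOR, and for ETS-type sites. The stretches of 3 bright members are shown because they carry the tract. They are from RefSeq, build GRCm38.p6, from base -60 to base 20 of the start, read along the gene. Capitals mark unbroken pyrimidines from a C within 3 bases of the start onward, and the ETS-type motif. In Rplp2 further pyrimidines come just before the marked ones, so the capitals are the later part of a longer run.
Rps27 (chr3:90213629-90213708, minus strand): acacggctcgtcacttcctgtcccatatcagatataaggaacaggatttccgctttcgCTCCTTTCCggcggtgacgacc
Rplp2 (chr7:141447591-141447670, plus strand): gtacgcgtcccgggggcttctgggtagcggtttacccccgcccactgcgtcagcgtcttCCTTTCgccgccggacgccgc
Rps10 (chr17:27635225-27635304, minus strand): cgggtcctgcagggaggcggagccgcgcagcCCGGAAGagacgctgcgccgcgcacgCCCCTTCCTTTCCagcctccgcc
A C followed by 4 pyrimidines at this place on the sense strand was found in 24 of the 60 ribosomal protein genes with a promoter in the table (40%), in 15.2% of the 9311 genes above background, and in 13.5% of all 27025 genes. The motif CCGGAAG, on either strand from 250 bases before to 50 after the start, was found in 25 of the 60 (41.7%), in 20.5% of the genes above background and in 9.93% of all. A match describes the letters and does not show that a factor binds.

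Interferon-stimulated genes were present throughout. Of 20 with a probe, 20 were above background, against 58.4% of all named genes, with a median percentile of 68.5. Ifi27l2a, a small mitochondrial protein of unclear role, was the brightest at 15.88, 16.17 and 15.57. Samhd1, which depletes deoxynucleotides in resting cells, read 13.41, 13.42 and 13.39, and Isg15, a ubiquitin-like modifier, read 13.16, 13.19 and 13.26, with its other probe at 9.29. Oas1a, which senses double-stranded RNA, read 11.20, 11.24 and 11.26, and Ifit3 and Ifit1, which bind viral RNA, had means of 10.65 and 9.82. Among the dimmest were Rsad2 (7.81) and Oasl2 (9.07). Rtp4, an interferon-inducible chaperone of receptors, read 12.71, 12.77 and 12.76, beside Cy5 signals of 4.23, 4.14 and 7.54. Of the 20 genes, 14 were also above background in all 3 Cy5 channels, a lower share than the 10367 of all 11541 member genes. Rsad2, the antiviral enzyme viperin, was above background in no Cy5 channel.

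These genes are switched on by the ISGF3 complex through the interferon-stimulated response element, and 4 promoters of the list are shown because they hold copies of it. The capitals mark GAAANNGAAA or its reverse complement TTTCNNTTTC, overlaps included, and the stretches are from RefSeq, build GRCm38.p6, read along the gene and upstream of its start.
Isg15 (chr4:156200849-156200908, minus strand): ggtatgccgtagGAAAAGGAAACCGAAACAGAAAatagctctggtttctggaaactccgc
Oas1a (chr5:120907526-120907575, minus strand): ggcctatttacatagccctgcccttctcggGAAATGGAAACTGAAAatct
Ifit3 (chr19:34583364-34583423, plus strand): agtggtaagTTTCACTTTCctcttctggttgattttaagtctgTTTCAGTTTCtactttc
Ifit1 (chr19:34640774-34640823, plus strand): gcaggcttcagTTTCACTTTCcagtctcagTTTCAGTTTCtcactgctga
The stretch of Isg15 holds 3 overlapping matches and the others hold 2 each. On either strand of the same window, the motif was found in 9 of the 14 listed genes with a promoter in the table (64.3%), in 3.84% of the 9311 genes above background and in 3.99% of all 27025 genes.

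Antigen presentation differed by class. MHC class I genes had 14 of 14 above background, with a median percentile of 95.5. Beside H2-K1 these included B2m, the light chain, at 16.41, 16.70 and 16.76, and H2-D1 at 16.26, 16.35 and 16.42. Erap1, the peptide-trimming protease, was the dimmest at 8.11. Of 10 class II genes, 8 were above background, against 58.4% of all named genes, with a median percentile of 44.1. H2-Ab1, a class II beta chain, read 10.99, 10.73 and 10.15, in the order of its Cy5 signals of 15.05, 14.76 and 13.95. Its partner H2-Aa read 5.75, 5.85 and 5.88, at percentile 0.927. Ciita, the master regulator of class II genes, was above background on 2 arrays, and H2-DMb2 on none. Cd74, the invariant chain, read 8.95, 8.93 and 8.69.

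Genes of cell division were low but mostly detectable. Of 20 listed, 18 were above background, against 58.4% of all named genes, with a median percentile of 34.5 and 0 among the brightest 10%. Birc5, the gene of survivin, was the brightest at 11.22, 11.18 and 11.25, but by its dimmest probe had a mean of 7.19. It was followed by Mki67, the Ki-67 antigen, at 10.32, 10.31 and 10.33, and Cdc20 at 10.20. Bub1, a spindle checkpoint kinase, was the dimmest at 6.26, and Aurkb and Cenpf were above background in no naive channel. DNA replication ranked higher, with 18 of 19 above background and 2 among the brightest 10%. Mcm6, a subunit of the replicative helicase, read 13.52, 13.51 and 13.53, and Pcna, the sliding clamp, read 13.26, 13.28 and 13.36. Cdc6, which loads the helicase, had a mean of 5.86, and Ccne2, the gene of cyclin E2, was above background in no naive channel.

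Traces of other cells differed by type. Of 13 B cell markers with a probe, 3 were above background, against 58.4% of all named genes, and 9 were in no naive channel. With the software's weaker positive-and-significant call it was 8 of 13. Ms4a1, the gene of CD20, read 5.39, 4.99 and 4.77, and Cd79a and Pax5 were likewise absent. The 3 above background were Cd79b (8.83), Cd22 (8.09) and Bank1 (6.05). Summed over the list, the linear signal was 10.12 to 10.23 on the log2 scale, against 17.82 to 17.86 for the naive T cell markers. The B cell list's summed Cy5 levels were 11.47, 11.45 and 11.60. Of the CD8 T cell pair, Cd8a, the alpha chain, read 5.22, 5.01 and 4.86 and was in no naive channel by either probe, whereas Cd8b1, the beta chain, read 8.44, 8.56 and 8.44.

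NK cell genes were present throughout. Of 14 listed, 14 were above background, against 58.4% of all named genes, with a median percentile of 62.3 and a summed level of 16.05 to 16.15. Gzma made up 65.2% to 67.2% of this sum, and the other 13 genes summed to 14.52 to 14.54. The list's summed Cy5 levels were 14.84, 13.91 and 14.18. Gzma, a granzyme of NK and cytotoxic T cells, read 15.43, 15.48 and 15.57, at percentile 98.6, and Nkg7, a granule protein, read 12.54, 12.56 and 12.56. Receptors that define NK cells were dimmer. Klra8, an activating Ly49 receptor, read 12.00, 11.99 and 11.94 (dimmest probe 6.35), Klrb1c, the gene of NK1.1, read 9.77, 9.76 and 9.91, and Ncr1, the gene of NKp46, read 8.65, 8.60 and 8.52. Gzmb, another granzyme, read 10.46, 10.13 and 9.95, in the order of its Cy5 signals of 13.34, 11.31 and 8.02. The part of NK cells in the levels of Ccl5, Ifng, Tbx21 or Eomes was not tested. Of the gamma delta T cell markers, Sox13 had a mean of 9.41 and Cd163l1, a scavenger receptor, of 8.32, and Blk, also listed for B cells, was in no naive channel.

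Myeloid markers were present in part. Of 17 monocyte and macrophage markers with a probe, 13 were above background (76.5%, against 58.4% of all named genes). Their median percentile was 24.3, and the list had a summed level of 15.32 to 15.36. Ctss made up 50.3% to 53.5% of this sum, and the rest summed to 14.24 to 14.35. The list's summed Cy5 levels were 14.28, 14.68 and 15.81, with 5 of the 17 genes above background in all 3 Cy5 channels. Ctss, cathepsin S, read 14.40, 14.44 and 14.37, and Itgam, the gene of CD11b, read 13.57, 13.57 and 13.74, with a dimmest probe at 5.85. Markers of macrophages were uneven. Csf1r, the receptor of macrophage colony-stimulating factor, had a mean of 10.20 by its brightest probe and 6.65 by its dimmest. Adgre1, the gene of F4/80, had a mean of 5.86, Lyz2 of 6.06 and C1qa of 6.87, while Spi1 and Fcgr1 were in no naive channel and Cd14 in 1. Of 11 neutrophil markers with a probe, 8 (72.7%) were above background, with a summed level of 14.48 to 14.57 for the list. Csf3r, the receptor of G-CSF, led at 13.93, 13.93 and 14.07. It made up 68.0% to 70.7% of the neutrophil sum, and the rest summed to 12.80 to 12.84. S100a9 read 11.28, 11.27 and 11.21. Granule genes spanned the list, with Mpo, myeloperoxidase, at 11.38, 11.33 and 11.35, and Elane, neutrophil elastase, at 9.66, 9.63 and 9.61. Camp, Ltf and Ngp, granule genes as well, were the dimmest at 8.46, 6.53 and 6.31. Mmp9 and Cxcr2 were in no naive channel.

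Of 7 dendritic cell markers with a probe, 4 were above background (57.1%), near the 58.4% of all named genes. The list's summed naive levels were 15.08, 15.09 and 14.79, and its summed Cy5 levels were 15.60, 15.45 and 15.71. Siglech, a marker of plasmacytoid dendritic cells, read 15.04, 15.06 and 14.76 by its brighter probe, but its other probe, with a mean of 4.86, was in no naive channel. Itgax, the gene of CD11c, had a mean of 8.43, and Xcr1, Clec9a and Cd209a were absent. Basophil, mast cell and eosinophil genes were above background for 5 of 8 (62.5%), also near that share. None was over 7.37 (Cma1, a mast cell chymase). Of 7 erythroid genes with a probe, 2 (28.6%) were above background. These were Hba-a1, an alpha globin, at 9.94, 9.96 and 10.03, and Slc4a1 at 7.05, 5.94 and 6.03. Of 8 platelet genes, 3 (37.5%) were above background, with a summed level of 8.52 to 8.69. Of 11 genes of stroma and endothelium, 3 (27.3%) were above background. Kdr, a VEGF receptor, read 11.94, 11.89 and 11.87, with its other probe in no naive channel, while Cdh5, Col1a1 and Col3a1 were absent. With the positive-and-significant call the counts were 4 for erythroid, 6 for platelet and 9 for stromal genes.

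As a further gauge, 15 genes of other organs were listed, 5 of which passed the positive-and-significant call. Of these, 12 were above background in no naive channel, among them Alb, the liver's albumin, at 4.49, 4.27 and 4.26. Ins2 (7.05) and Krt14 (6.06) were dim. Snap25, a synaptic protein of neurons, read 13.03, 13.04 and 13.25, at percentile 91.1, from its only named probe. Listed genes without a named probe were Atp5g1, Cd68, Hbb-b1, Ifi203, Ighd, Ighm, Itgae, Ly6c2, Ly6g, Mx1, Mx2, Trdc, Zbtb46, Ahsp and Tcrg-C1.

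A small set of genes differed between the naive channels. The widest range was that of Batf3, an AP-1 factor, which read 8.98, 8.24 and 5.79 beside Cy5 signals of 13.15, 12.49 and 6.27. Tgm2, transglutaminase 2, read 9.06, 8.22 and 6.93 beside 13.73, 12.64 and 8.78. Cdkn1a, the gene of the cell cycle inhibitor p21, read 7.77, 7.15 and 5.96 beside 13.37, 12.74 and 10.44. In each of these the naive values ran in the order of the culture on the same array. Mt1, a metallothionein, read 10.90, 11.04 and 9.29 beside 16.17, 16.39 and 13.92. Fes, a tyrosine kinase, read 8.60, 10.06 and 8.35, highest on the Th9 array. Apol9b, an apolipoprotein L, read 8.49, 8.71 and 10.08 beside 6.66, 10.25 and 13.16, highest on the iTreg array. The remaining genes of the 10 widest were Spata48, Cbln2, Myo9a and Sh2b2.

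**Figure D3:**
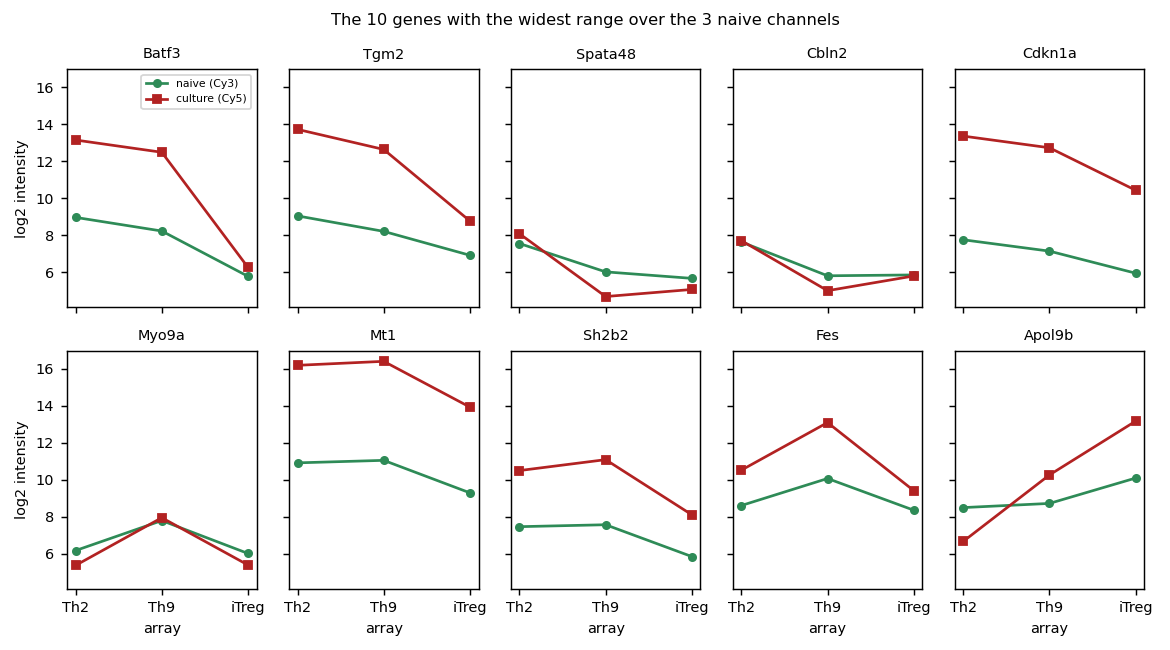
Naive (Cy3, circles) and culture (Cy5, squares) signal in log2 intensity on each of the 3 arrays, for the 10 genes whose naive signal had the widest range. In all 10 the array with the highest naive value is also the array with the highest culture value, as for Batf3 with 8.98 and 13.15 on the Th2 array.

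In 10 of these 10 genes, and in 32 of the 33 that differed at least 2-fold, the naive signal was highest on the array where the Cy5 signal was highest. Over all member genes this held for 4392 (38.1%). The same was seen more weakly across dim genes. Of 364 genes with a naive mean under 8 and a Cy5 range of at least 4-fold, 250 (68.7%) had a higher naive signal on the array of their highest Cy5 signal than on that of their lowest, with a median difference of 0.11. Among 339 brighter genes with as wide a Cy5 range it was 218 (64.3%), with a median difference of 0.0339. Among 3012 genes with a naive mean under 8 and a narrower Cy5 range it was 1747 (58.0%), with a median difference of 0.0328. Over all 11541 member genes it was 6216 (53.9%), with a median difference of 0.00848. Whether Cy5 signal on a spot added to its Cy3 signal was not tested. It bears on dim genes named above whose naive values followed the cultures, among them Il9, Lag3, Atf3, Asns, Ccr8 and Scd1.

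Seen against the cultures, 10367 of the 11541 member genes were also above background in all 3 Cy5 channels, where 10768 genes were so in all. A further 457 (3.96%) were above background in all 3 naive channels and in no Cy5 channel by any probe. This count was 264 with the positive-and-significant call and 750 without the iTreg array. They were mostly dim, with a median of 6.16 and a highest level of 9.81. The brightest was Klrb1c, and the first 15 also held the NK cell receptors Ncr1, Klrb1 (8.58) and Klra5 (8.18). Ifit3b, a relative of Ifit3, read 8.74, 8.74 and 8.77, Phf11c read 8.83, 8.84 and 8.89, and Cmpk2, a mitochondrial nucleotide kinase, read 8.28, 8.15 and 8.19. Of the interferon list, 1 of 20 genes was in this set. Cd86, a costimulatory ligand of antigen-presenting cells, read 8.40, 8.38 and 8.32, and Vcam1, an adhesion molecule, 7.94, 8.09 and 7.98. The others were Samd3, Ggt5, Unc5a, Cd163l1, Plbd1 and Adgrg3. Of the lists of other cells, it held 5 of 8 basophil, mast cell and eosinophil genes, 2 of 8 platelet, 3 of 14 NK cell, 2 of 11 neutrophil and 2 of 17 monocyte and macrophage genes, and 1 each of the gamma delta T cell and dendritic cell lists. Of the homing list it held 2 of 31. These list counts are out of all genes with a probe, while the 3.96% is out of member genes. The 5 basophil, mast cell and eosinophil genes were dim, with a median of 6.24 and none over 7.37, beside 6.16 for the whole set.

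**Figure D4:**
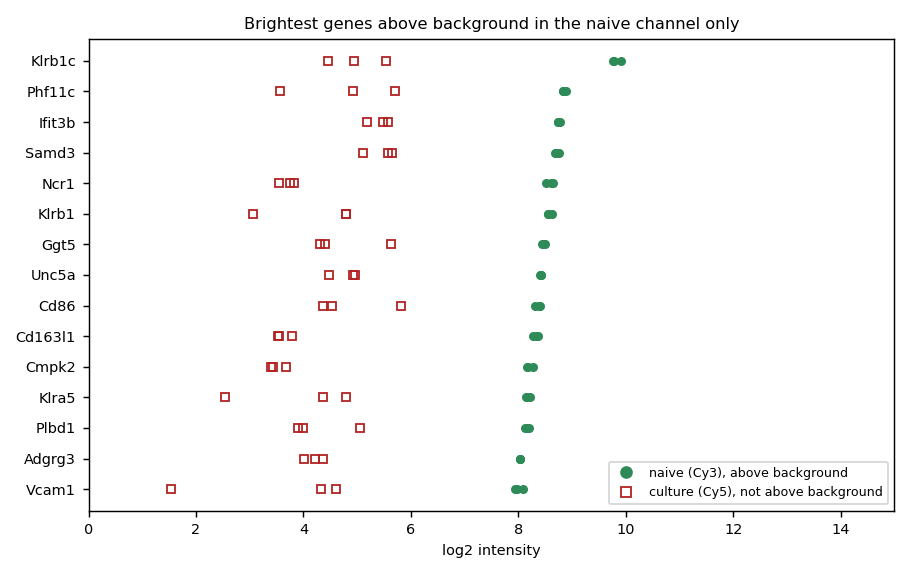
Signal in log2 intensity of the 15 brightest genes that were above background in all 3 naive (Cy3) channels and in no culture (Cy5) channel, with 1 filled circle per naive channel and 1 open square per culture. Klrb1c leads with a naive mean of 9.81 and culture signals of 5.54 or less.

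The opposite set, absent from every naive channel and above background in all 3 cultures, held 263 genes (1.33% of those named), 151 with the positive-and-significant call and 434 without the iTreg array. Vldlr, a lipoprotein receptor, read 4.91, 4.80 and 4.66 in the naive channels, near the negative controls. Perp, a p53 target, read 5.69, 5.35 and 5.52, and Pkp2, a desmosomal protein, read 4.78, 4.87 and 4.60. Their Cy5 signals lay between 9.04 and 11.51. Among the 10 brightest by Cy5 were also Pdgfa, Dlk1, Mboat2, Bcat1, Arhgdig and Ift43.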

How the data were processed

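The deposited scanner files hold spot and background intensity in both channels of 3 arrays, which came from Agilent's Feature Extraction software, version 11.0.1.1 per the file headers, while 9.3.2.1 stands in the submitters' processing notes. The deposited intensity values used here were the median Cy3 and Cy5 spot signals and their local background medians, to which the authors had applied no normalization.

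Background medians were subtracted, outlier spots were dropped and spots of a probe were averaged. Log2 was taken with a floor of 1, and each channel of each array was scaled on its own 75th percentile over non-control probes. No scaling was made between dyes. A probe was above background where over 50% of its spots were called so. Accessions were matched without version to RefSeq genes of GRCm38.p6, for 26055 of 39429 probes (66.1%). A gene was given by its brightest member probe. For 12 genes a brighter probe was not above background on all 3 arrays. Work used Python 3.11.15, numpy 2.4.6, pandas 2.3.3 and matplotlib 3.10.9, with limma 3.58.1 in R 4.3.3 for normexp. The scaling was checked on simulated arrays. The authors' processed ratios, in 3 columns, were not used.

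The members and lists were chosen with earlier results of these data known. Genes were named by rule: the 25 brightest, the cell type markers, the 3 brightest and 3 dimmest of each list with its absent members, the 10 with the widest range and the brightest of each 1-channel set. Further list members are given as examples, and were chosen after their values were seen. Some genes that the rule names are not reported here. Alternatives were other signals, scalings, detection rules and probe rules, and leaving out each array. The levels of 1 group are described, so no test was made, and 3 channels limit the precision.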

Additional observations from a re-analysis of the deposited data

Results flagged for a closer look

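Probes without a gene name were used in no gene list, and 5111 of them were well above background in all 3 naive channels. By identifier, 2031 carried a predicted RefSeq transcript, 1099 an Ensembl transcript, 265 a curated RefSeq transcript and 1716 another name. Of the 13374 unnamed probes, 38.2% were above background, against 57.2% of named probes. Negative control spots, which were above background on 1, 3 and 3 of 153 spots per array, give the level without a matching RNA.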

How the results depend on the processing

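The count of 11541 genes above background became 12520 when 1 array sufficed, 13573 with the software's positive-and-significant call and 11193 with a signal over 2 times the background, and ran from 11610 to 11670 without 1 array. The median SD of 0.0484 stayed between 0.0475 and 0.0491 under other signals and scalings, and ran from 0.0324 to 0.0496 without 1 array, lowest without the iTreg array. Of the 25 brightest genes, 21 were kept with the processed signal, 17 with the mean over all probes and 24 without any 1 array. Lists with a median above percentile 75 numbered 13, and 13 or 14 under every alternative run. List medians moved by at most 7.12 points with the mean over probes and 3.89 with the processed signal, but by up to 14.9 without the Th9 array. Genes above background in the naive channel only fell from 457 to 264 with the positive-and-significant call and ran from 513 to 750 without 1 array, with 750 without the iTreg array. Genes above background in the cultures only fell from 263 to 151 with that call and ran from 317 to 434, with 434 without the iTreg array. With fewer arrays a gene has fewer calls to meet. The signal after the software's spatial detrending, an alternative chosen after seeing the data, kept all 25 brightest genes and the 13 lists. No paired analysis was possible because the results come from no test: they describe the levels of 1 group, the naive channel.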
